A study of Mus musculus with 6 samples.

Results

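The p53 family and the DNA damage checkpoint of the oocyte were followed in cultured mouse ovary as 10 genes chosen by name, out of 26329 genes in the authors' table. They are the 3 transcription factors Trp53, Trp63 and Trp73, the apical kinases Atm and Atr, the checkpoint kinases Chek1 and Chek2, and Mdm2, Cdkn1a and Ccng1, which p53 activates. All 10 were found under these symbols, and 9 passed the filter on low values, a mean of at least 1 FPKM (fragments counted relative to gene length and library size) over the 6 libraries. Trp73 did not pass it.

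RNA sequencing had been carried out on 3 Control libraries, from mouse ovaries cultured with the solvent DMSO, and 3 ISRIB libraries, from ovaries cultured with ISRIB dissolved in DMSO. ISRIB stabilises eIF2B, the exchange factor of translation initiation, and so blunts the integrated stress response. The study is titled for the activation of primordial follicles through mTOR when that response is inhibited. The series' design names newborn ICR mice for its injection experiments, while the labels of the sequenced ovaries name no strain, age, genotype, dose or length of culture.

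p53, p63 and p73 bind the same kind of DNA element and switch on genes for cell cycle arrest, repair and cell death. In somatic cells, damage activates the kinases ATM and ATR, these activate CHK2 and CHK1, and p53 is freed from its ubiquitin ligase MDM2. In the resting oocytes of mice the long form of p63, TAp63, stands in that place. CHK2 and casein kinase 1 phosphorylate it, and its targets Bbc3 (PUMA) and Pmaip1 (NOXA) then kill the oocyte. Activity of all these proteins is set largely by phosphorylation and protein stability, which RNA levels do not measure.

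The element these factors share was looked for in the promoters of the members, because 3 of them are textbook p53 target genes. RefSeq promoter windows (GRCm38.p6, 250 bases before to 50 bases after a start site) were at hand for 9 of the 10 members, as 11 windows; Trp63 had none. The p53 decamer consensus, 10 bases long and the same on both strands, was found in 4 of these windows, those of Cdkn1a, Mdm2, Ccng1 and Trp53, and in 8.36% of the 32851 windows of all genes. The windows of Atm, Atr, Chek1, Chek2 and Trp73 and the second window of Cdkn1a held no exact match, which says only that these letters are absent there. The 4 windows with a match are shown 5′ to 3′ because they show where the target genes carry the letters of the consensus, with each match in capitals.
Cdkn1a, chr17:29090729-29091028, plus strand: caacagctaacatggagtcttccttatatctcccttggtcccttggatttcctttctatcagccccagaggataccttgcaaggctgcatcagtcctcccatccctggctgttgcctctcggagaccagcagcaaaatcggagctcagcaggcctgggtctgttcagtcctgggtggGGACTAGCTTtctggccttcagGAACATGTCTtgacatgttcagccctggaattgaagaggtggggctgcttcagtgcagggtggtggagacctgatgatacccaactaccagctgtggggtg
Mdm2, chr10:117710709-117711008, minus strand: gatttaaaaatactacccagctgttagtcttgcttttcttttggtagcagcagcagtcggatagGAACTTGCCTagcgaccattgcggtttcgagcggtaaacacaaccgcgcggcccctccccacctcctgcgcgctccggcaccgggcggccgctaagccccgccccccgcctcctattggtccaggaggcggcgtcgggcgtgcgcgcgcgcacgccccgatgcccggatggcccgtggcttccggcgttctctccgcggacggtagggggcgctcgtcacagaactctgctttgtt
Ccng1, chr11:40755237-40755536, minus strand: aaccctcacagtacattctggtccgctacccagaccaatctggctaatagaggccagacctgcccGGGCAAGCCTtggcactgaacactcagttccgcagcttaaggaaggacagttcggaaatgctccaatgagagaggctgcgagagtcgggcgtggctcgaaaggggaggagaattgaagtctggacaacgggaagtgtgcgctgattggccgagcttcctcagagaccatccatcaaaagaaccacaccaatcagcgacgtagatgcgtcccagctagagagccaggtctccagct
Trp53, chr11:69580109-69580408, plus strand: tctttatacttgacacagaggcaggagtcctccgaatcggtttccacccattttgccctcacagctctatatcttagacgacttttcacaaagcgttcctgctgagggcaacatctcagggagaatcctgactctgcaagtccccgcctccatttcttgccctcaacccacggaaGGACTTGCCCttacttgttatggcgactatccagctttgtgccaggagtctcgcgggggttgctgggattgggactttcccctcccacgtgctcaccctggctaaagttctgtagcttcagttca
The Cdkn1a window, at the upstream start of the gene, was the only member window with a pair of matches. They lay 73 and 51 bases before the start with 12 bases between them, and such a pair, with at most 13 bases between, occurred in 24 of all windows (0.0731%). The 10 bases after the second Cdkn1a match differed from the consensus at 1 position. The matches of Mdm2, Ccng1 and Trp53 began 186, 185 and 75 bases before their starts. Among the 25 further p53 target genes listed for this work that had a window, 8 (32.0%) held a match. Counted by gene in the same way, 9.55% of all 27025 genes with a window held one. These are matches of letters, not sites shown to be bound in these ovaries.

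The deposited FPKM could be turned back into whole reads for every gene, and these added up to 34474821 to 38002135 reads per library. Oocytes were present in every library: all 10 oocyte markers were measured at a mean above 1 FPKM, and their summed level was 873 to 972 FPKM in Control and 977 to 1087 FPKM in ISRIB. ISRIB replicate 1, and less so Control replicate 2, had high immediate early genes, with summed levels of 435 and 299 FPKM against 127 to 163 FPKM in the other 4. Markers of endothelium were lower in ISRIB for 6 of 6 genes, with 4 not overlapping (66.7%, against 12.0% of all genes tested). Their summed levels were 154 to 172 FPKM in Control and 130 to 154 FPKM in ISRIB. Markers of the surface epithelium were lower for 6 of 6, with sums of 249 to 305 against 247 to 251 FPKM. The latter rested on Control replicate 1: without it 3 surface markers were higher and 3 lower, with a median log2 fold change of −0.01 in place of −0.16. The part of these in the members' results was not tested. ISRIB replicate 3 had the lowest levels of the oocyte transcription factors Sohlh1, Lhx8, Nobox and Tbpl2, though not of Figla. The labels do not say whether replicates came from different animals or cultures. A p-value here therefore reflects spread among libraries that may be technical only.

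None of the 9 members tested passed limma over all genes (adjusted p under 0.05), and neither did any other gene: 0 of 12922 were called (0%), while 2125 (16.4%) had an unadjusted p under 0.05. Atm and Atr were among the latter. In voom on the recovered reads 120 genes (0.929%) were called, and none was a member. For Trp63, Atm and Atr the 3 ISRIB values lay below all 3 Control values, which was so for 12.0% of all genes tested. For no member did they all lie above, against 10.8% of all genes. The other 6 members tested had groups that overlapped.

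**Figure D1:**
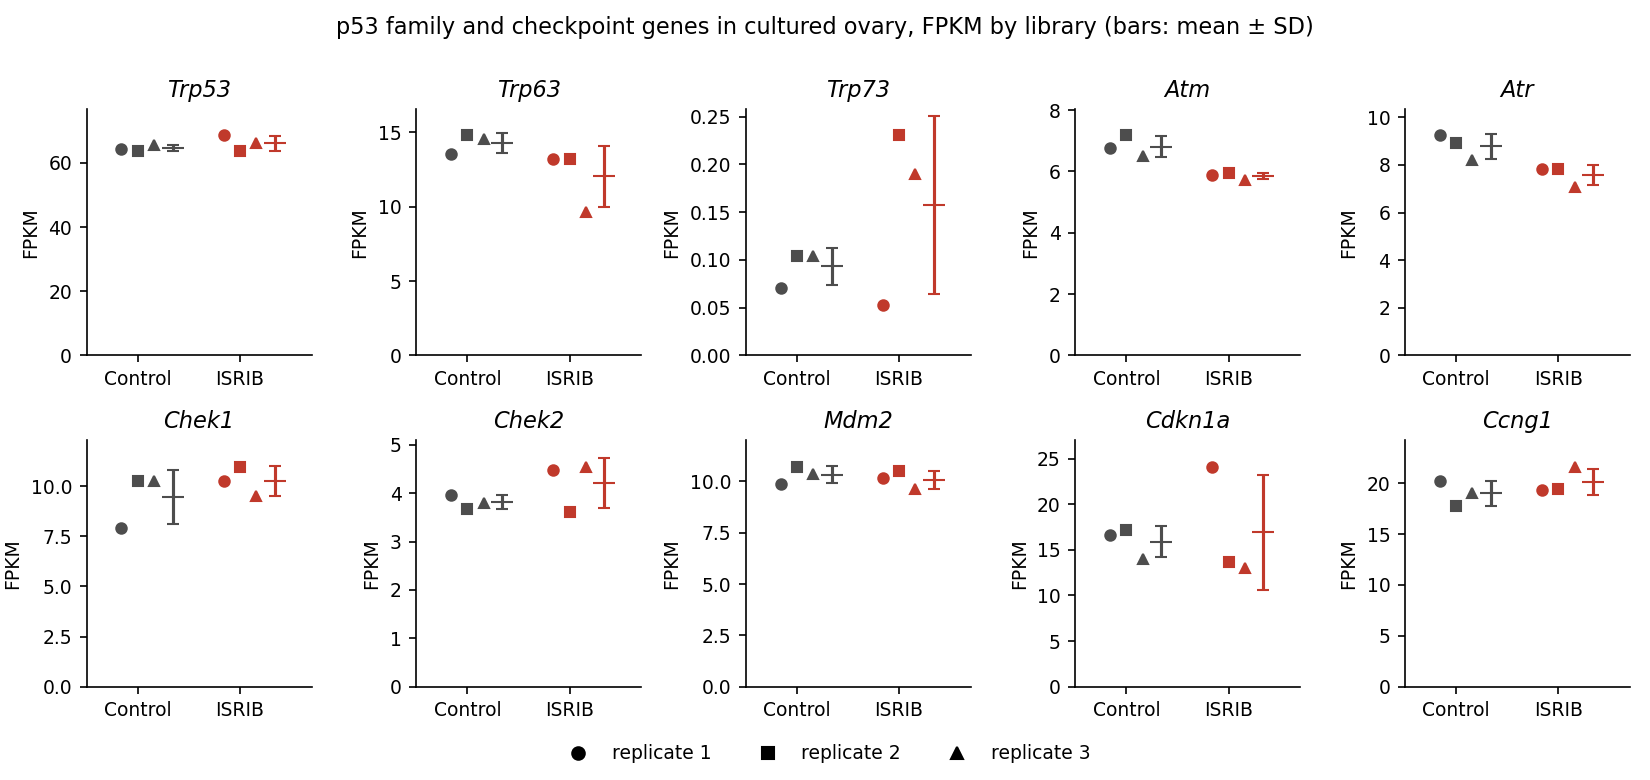
FPKM of the 10 members in each library (points, by replicate) with the mean ± SD of the 3 libraries of each group; every vertical axis starts at 0 and each panel has its own scale. Trp63, Atm and Atr have no overlap between groups, while Cdkn1a is set apart by ISRIB replicate 1, at 24.1 FPKM.

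Trp53, which codes for p53, was the most abundant member and one of the steadiest genes in the table. It measured 64.4, 63.7 and 65.5 FPKM in the Control libraries and 68.5, 63.8 and 66.0 FPKM in the ISRIB libraries. ISRIB replicate 2 lay inside the range of the Control values and the other 2 ISRIB libraries lay above it. The log2 fold change was 0.03 (SE 0.0418, 95% interval −0.06 to 0.13, limma adjusted p = 0.725), on the log2(FPKM + 0.5) scale used for all fold changes here. Its standard deviation between replicates was 0.0389 on that scale, a value above that of only 8.30% of the genes tested. The gene lies at chr11:69580359-69591873 on the plus strand (GRCm38, GENCODE M21), and GENCODE lists 1 processed copy, Trp53-ps, so a part of its reads may be shared.

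Trp63, whose TAp63 product is the form known from oocytes, was lower in all 3 ISRIB libraries than in any Control library, by a margin that 1 library mostly set. It measured 13.5, 14.8 and 14.5 FPKM in Control and 13.2, 13.2 and 9.65 FPKM in ISRIB. The gap between the lowest Control and the highest ISRIB library was narrow, and ISRIB replicate 3 lay far below the rest. The means were 14.3 ± 0.672 and 12.0 ± 2.06 FPKM (SD, n = 3 each). The log2 fold change between them was −0.25 (SE 0.116, 95% interval −0.52 to 0.02, limma adjusted p = 0.329). Without ISRIB replicate 3 the log2 fold change was −0.11 (adjusted p = 0.512). It was measured on 2404 to 3916 reads per library.

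In whole ovary, fewer oocytes and less Trp63 RNA per oocyte cannot be told apart, so the oocyte markers are given beside it. ISRIB replicate 3 was the lowest library of all for Sohlh1 (43.2 FPKM, against 57.5 to 62.2 in the other 5), Lhx8 (18.5 against 21.6 to 27.2), Tbpl2 (8.05 against 10.2 to 11.8), Nobox (83.4 against 93.0 to 103) and Dazl (13.7 against 16.0 to 17.1). These code for transcription regulators and an RNA-binding protein of oocytes. Gdf9 and Zp3, markers of growth, were not low there, at 140 FPKM against 105 to 137 for Gdf9 and 462 against 361 to 466 for Zp3. The germ cell helicase Ddx4 was lowest there by little, at 15.8 FPKM against 15.9 to 16.6 in the other 5. The transcription factor Figla was lowest in Control replicate 1, at −0.097 log2 from the Control mean against −0.085 in ISRIB replicate 3. Ooep in ISRIB replicate 3 lay above all Control libraries, at 0.17 log2 from the Control mean against 0.059 at most. Of the 10 oocyte markers 5 were higher and 5 lower in ISRIB, with a median log2 fold change of −0.04. Without ISRIB replicate 3, 6 were higher and 4 lower and the median was 0.03. Their part in the Trp63 result was not tested.

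Trp63 also marks the basal layer of squamous epithelia, where its short ΔN form is made. The markers of that tissue were near 0, with 4 of 6 under a mean of 1 FPKM. Krt5 stood at 0 to 0.0354 FPKM and the desmosomal Dsg3 at 0 in 4 of 6 libraries, and the summed level was 6.52 to 7.57 FPKM in Control and 4.08 to 10.3 FPKM in ISRIB, mostly from Sprr1a. GENCODE M21 gives Trp63 8 transcripts, 4 from the upstream start at base 25683763 of chromosome 16 and 4 from the internal start at base 25801916. The deposited value is 1 number for the whole gene, chr16:25683763-25892102 on the plus strand, and does not separate them.

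The genes whose profile over the 6 libraries was most like that of Trp63 were sought among 12259 tested genes with a proper symbol, by the root mean square difference of centred log2 values. Psg17 (0.0339), Asz1 (0.0390) and Kif16b (0.0441) came first. Asz1, a germ cell gene of the piRNA pathway, had 8.23, 9.67 and 8.92 FPKM in Control and 8.39, 8.67 and 6.04 FPKM in ISRIB. Psg17 and Kif16b were, like Asz1, lowest in ISRIB replicate 3, at 0.930 and 10.2 FPKM. A choice by likeness to Trp63 brings this with it, so it says nothing further about Trp63.

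Trp73, the third family member, was close to the limit of detection. It had 0.0711, 0.104 and 0.104 FPKM in Control and 0.0524, 0.230 and 0.190 FPKM in ISRIB, from 13, 21, 21, 10, 45 and 36 reads. ISRIB replicate 1 was the lowest library and the other 2 ISRIB libraries were the highest, so the groups overlapped (exact two-sided permutation p = 0.4, where 3 against 3 can reach 0.1 at best). Of 7 markers of multiciliated epithelium, a tissue known for p73, 5 had a mean under 1 FPKM: the regulator Mcidas was at 0 in 5 of 6 libraries and Foxj1 between 0.329 and 1.28 FPKM. Ccno, also in that list, stood at 59.6 to 82.4 FPKM. An antisense gene, Trp73os, shares 280 exonic bases with Trp73.

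**Figure D2:**
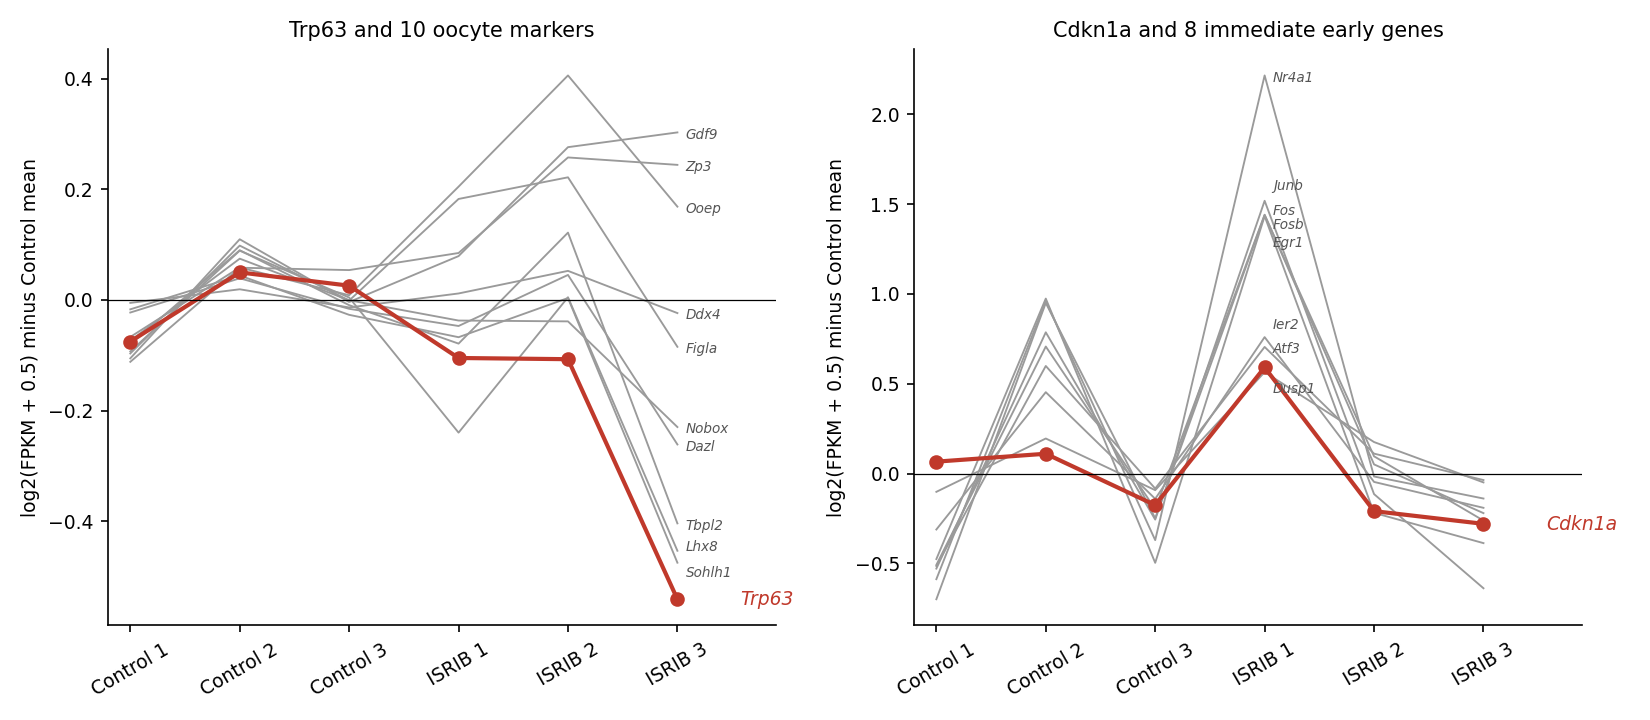
log2(FPKM + 0.5) minus the Control mean in each library for Trp63 (red, left) with the 10 oocyte markers and for Cdkn1a (red, right) with 8 immediate early genes; lines only join the values of a gene. Trp63 is lowest in ISRIB replicate 3, as are Sohlh1, Lhx8 and Tbpl2, while Figla, Gdf9, Zp3 and Ooep are not. Cdkn1a is highest in ISRIB replicate 1, as are the immediate early genes.

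Atm and Atr, the large kinases that respond to double-strand breaks and to stalled replication, differed by nearly the same amount. Atm measured 6.762, 7.171 and 6.499 FPKM in Control and 5.883, 5.946 and 5.733 FPKM in ISRIB. The ISRIB values were tightly grouped below all Control values. The log2 fold change was −0.20 (SE 0.0633, 95% interval −0.35 to −0.06), with an unadjusted limma p of 0.0131 and an adjusted p of 0.191. Atr measured 9.23, 8.90 and 8.20 FPKM in Control and 7.81, 7.81 and 7.07 FPKM in ISRIB, again with no overlap. Its log2 fold change was −0.20 (SE 0.0698, 95% interval −0.36 to −0.04), with an unadjusted limma p of 0.0200 and an adjusted p of 0.221. With single libraries left out the log2 fold change was −0.23 to −0.17 for Atm and −0.25 to −0.16 for Atr. In voom on the recovered reads the adjusted p was 0.0858 for Atm and 0.120 for Atr.

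Gene length moved with this result. The length implied by reads and FPKM was 12405 bases for Atm and 11919 for Atr. Their GENCODE exons cover 10338 and 23629 bases, so the implied lengths do not match that annotation. By implied length both genes lie in the longest of 10 length classes of equal size. In that class 31.6% of genes had all ISRIB values below all Control values, against 1.78% in the shortest class, and the median log2 fold change was −0.07 against 0.10. Once the trend with length had been removed from each library, Atm and Atr both stood at −0.13, with 95% intervals of −0.27 to 0.01 and −0.28 to 0.01 and unadjusted limma p of 0.0590 and 0.0661. Their groups still did not overlap, with all ISRIB values below all Control values. After this correction that was so for 1297 of the 12922 genes tested, and 19.6% had no overlap in either direction. Trp63, with 6982 bases in the class below, went to −0.21 (adjusted p = 0.472) and its groups then overlapped. Atm lies at chr9:53439149-53536740 on the minus strand and Atr at chr9:95857597-95951781 on the plus strand. Atr shares 726 and 462 exonic bases with the antisense genes 1700065D16Rik and Gm16794, and since the strand setting of the counting is not given, a part of its reads may be theirs.

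**Figure D3:**
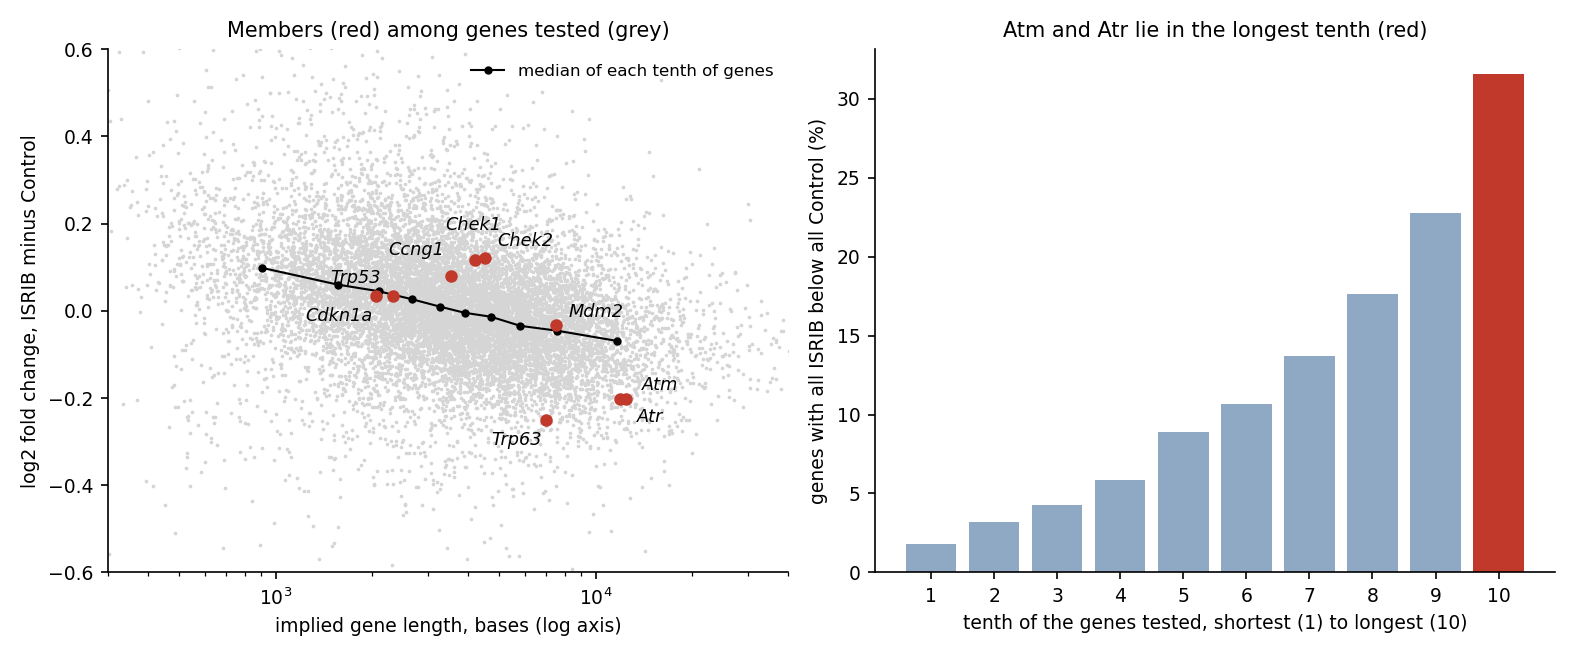
Left, log2 fold change (ISRIB minus Control) against implied gene length on a log axis for the genes tested (grey, vertical range limited to ±0.6), the median of each of 10 length classes (black) and the 9 members tested (red). Right, the share of genes with all ISRIB values below all Control values in each class; it goes from 1.78% to 31.6% in the class that holds Atm and Atr.

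Chek1 and Chek2, the kinases that carry the signal on, did not differ between the groups beyond the spread of the libraries. Chek1, which acts in every S phase, had 7.890, 10.23 and 10.26 FPKM in Control and 10.28, 10.97 and 9.505 FPKM in ISRIB. Control replicate 1 was the low library, and without it the log2 fold change went from 0.12 (95% interval −0.13 to 0.36, limma adjusted p = 0.616) to −0.00. Proliferation markers moved little with treatment, with a summed level of 219 to 246 FPKM in Control and 227 to 249 FPKM in ISRIB and Control replicate 1 the lowest of the 6. Chek2, the kinase upstream of TAp63 in mouse oocytes, had 3.97, 3.68 and 3.80 FPKM in Control and 4.47, 3.62 and 4.55 FPKM in ISRIB. Here 2 ISRIB libraries lay above all others and replicate 2 below them. The log2 fold change was 0.12 (95% interval −0.10 to 0.34, adjusted p = 0.566), and 0.22 without ISRIB replicate 2 (adjusted p = 0.324).

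Of the 3 target genes among the members, Cdkn1a varied most between replicates. Mdm2, the ligase that marks p53 for destruction, had 9.886, 10.71 and 10.38 FPKM in Control and 10.17, 10.48 and 9.610 FPKM in ISRIB. The groups overlapped almost fully, with a log2 fold change of −0.03 (95% interval −0.17 to 0.10, limma adjusted p = 0.823), and 0.01 after the length correction. Ccng1, cyclin G1, had 20.2, 17.7 and 19.1 FPKM in Control and 19.3, 19.5 and 21.6 FPKM in ISRIB, a log2 fold change of 0.08 (95% interval −0.07 to 0.24, adjusted p = 0.581). Without Control replicate 1 it was 0.13 with no overlap (adjusted p = 0.495), where 32.5% of all genes tested had none.

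Cdkn1a, which codes for the cell cycle inhibitor p21, measured 16.61, 17.14 and 13.97 FPKM in Control and 24.12, 13.63 and 12.96 FPKM in ISRIB. ISRIB replicate 1 lay above all other libraries and the remaining ISRIB libraries below all Control libraries. The log2 fold change was 0.03 (95% interval −0.46 to 0.52, limma adjusted p = 0.952). Without ISRIB replicate 1 it was −0.24 with no overlap, and 37.8% of all genes tested then had none. The unadjusted limma p was 0.0297, with 2429 of the 12922 genes under 0.05, and the adjusted p was 0.216. The standard deviation of Cdkn1a between replicates, 0.359 on the log2 scale, was larger than that of 97.6% of the genes tested. The immediate early genes were highest in the same library, with Egr1 at 175 FPKM and Junb at 96.3 FPKM, against 45.5 to 127 and 21.2 to 57.8 FPKM in the other 5. Control replicate 2 was second for both of those genes and for Cdkn1a. The part of this in the Cdkn1a result was not tested. Gadd45a and Plk3, p53 targets of the arrest list, were highest in ISRIB replicate 1 too. They stood there at 24.8 FPKM against 14.5 to 17.5 and at 7.19 FPKM against 4.27 to 5.37. Of the other tested genes of that list, Btg2, Plk2, Sesn2 and, by little, Ckap2 were also highest there. Sesn1 and Rprm were instead lowest there, at 18.46 FPKM against 18.99 to 21.20 and at 1.43 FPKM against 1.51 to 2.43. Gtse1 was neither highest nor lowest in that library.

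The profiles closest to that of Cdkn1a were those of Acsl4 (root mean square difference 0.0341), D16Ertd472e (0.0560) and Itprip (0.0615). Acsl4, an acyl-CoA synthetase, had 17.8, 18.7 and 15.2 FPKM in Control and 26.3, 14.7 and 13.2 FPKM in ISRIB. Cdkn1a lies at chr17:29090976-29100727 on the plus strand and shares 273 exonic bases with AC167363.2, a gene on the opposite strand.

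**Figure D4:**
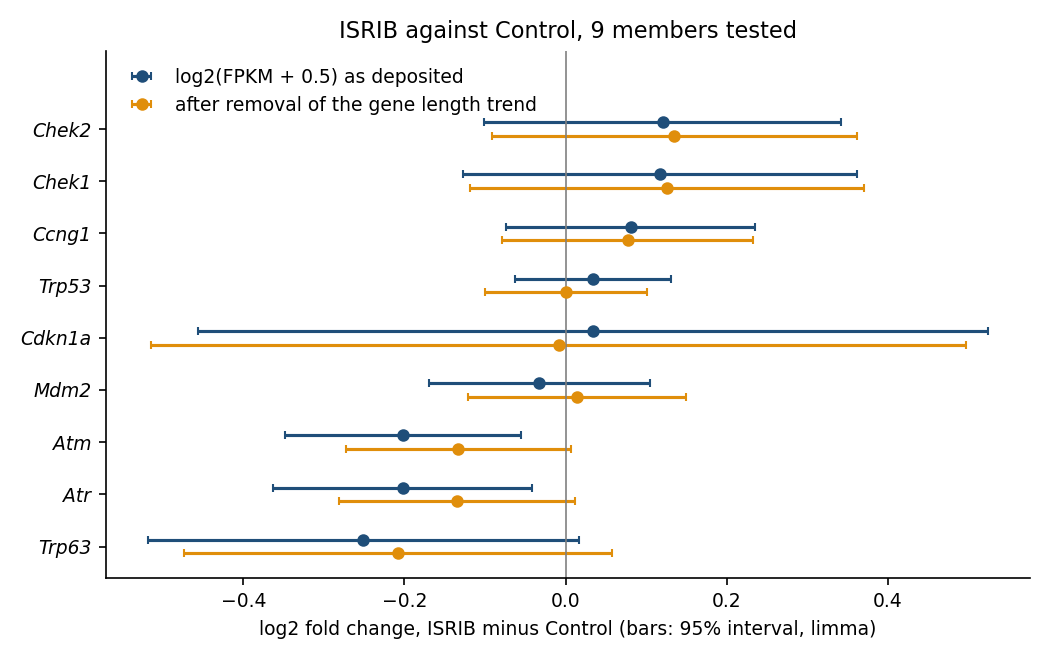
log2 fold change (ISRIB minus Control) with its 95% interval from limma for the 9 members tested, on the deposited values (blue) and after removal of the trend with gene length (orange). The intervals of Atm and Atr exclude 0 before the correction and reach 0.01 after it, and that of Cdkn1a is the widest, from −0.46 to 0.52.

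Between genes, FPKM levels compare per length. Over the 6 libraries the mean level was 65.3 FPKM for Trp53, 19.6 for Ccng1, 16.4 for Cdkn1a, 13.2 for Trp63, 10.2 for Mdm2, 9.86 for Chek1, 8.17 for Atr, 6.33 for Atm, 4.02 for Chek2 and 0.125 for Trp73. Of the 9 steps in this order 3 had ranges that did not overlap: Trp53 lay above Ccng1 by a ratio of 3.34, Atm above Chek2 by 1.58 and Chek2 above Trp73 by 32.0. From Ccng1 down to Atm each neighbour overlapped the next. The lengths behind these levels were 4496 bases for Chek2 and 12405 for Atm. Their longest GENCODE transcripts have 2276 and 9819 bases, so the step between these genes depends on the length used. Levels with other lengths were not tested. Trp53 stood above 93.5% of the genes tested and Chek2 above 23.6%.

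Further genes of the pathway were taken from lists in which limma on log2(FPKM + 0.5) called no gene in either direction; in voom 1 was called, the regulator Huwe1. Of 15 p53 targets that act in cell death, 10 were higher and 5 lower in ISRIB, with a median log2 fold change of 0.08, where all genes tested had a median of 0.01. All ISRIB values lay above Control for 3 of them (20%, against 10.8% of all genes tested) and below for 0, and after the length correction they lay above for 1. Bax, the pore-forming death effector, had 38.7, 38.9 and 38.4 FPKM in Control and 44.8, 41.7 and 44.4 FPKM in ISRIB (log2 fold change 0.17, 95% interval 0.07 to 0.27, limma adjusted p = 0.128). Perp, a membrane protein of cell junctions, had 6.26, 7.19 and 9.76 against 10.3, 10.4 and 12.1 FPKM (0.49, adjusted p = 0.172). Both groups of values were apart, though by a small gap for Perp. Zmat3 and Aen had log2 fold changes of −0.19 and −0.07 (adjusted p = 0.371 and 0.708).

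The 9 tested targets that act in arrest had a median of 0.05, with 6 higher and 3 lower and no gene without overlap. Without ISRIB replicate 1 the direction turned, with 3 higher and 6 lower and a median of −0.03, and on TPM 4 were higher and 5 lower. Among the 8 that act in repair and metabolism, 4 were higher and 4 lower, with a median of 0.02, of −0.03 on TPM and of −0.02 without ISRIB replicate 2. The DNA damage binding gene Ddb2 had 8.43, 8.36 and 8.37 FPKM in Control and 9.06, 9.99 and 9.26 FPKM in ISRIB (log2 fold change 0.16, limma adjusted p = 0.240), and the polymerase gene Polh differed by 0.19 (adjusted p = 0.219). Xpc, which finds helix distortions, had all ISRIB values below Control (−0.11, adjusted p = 0.303). Targets of p53 thus had values on both sides of Control, as had the members.

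The list around TAp63, its casein kinase 1 activators and the death effectors of the oocyte, had 4 of 12 genes higher and 8 lower, with a median of −0.04, and of 0.01 after the length correction. PUMA's gene Bbc3 had 3.72, 3.39 and 3.02 FPKM in Control and 3.89, 3.68 and 3.57 FPKM in ISRIB, overlapping, with a log2 fold change of 0.12 (limma adjusted p = 0.530). NOXA's gene Pmaip1 had means of 1.97 FPKM in Control and 1.90 FPKM in ISRIB, also overlapping (−0.05, adjusted p = 0.898). Abl1, a kinase that can act on p63 and p73, had −0.07 (adjusted p = 0.514) and the caspase gene Casp9 −0.11 (adjusted p = 0.462). Bax is in this list too and was the only one of the 12 with no overlap. Its implied length of 952 bases lies in the shortest class, where 23.7% of genes had all ISRIB values above Control. After the length correction none of the 12 was without overlap.

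Sensors and mediators of damage were mostly lower: 24 of 30 tested (80.0%) had a negative log2 fold change, against 48.2% of all genes tested, with a median of −0.05. No overlap was seen for 5 lower (16.7%) and 1 higher (3.33%), against 12.0% and 10.8% of all genes tested. After the length correction 19 of 30 were lower, with a median of −0.06. Rad50, part of the complex that brings ATM to breaks, had 18.2, 18.1 and 17.5 FPKM in Control and 15.3, 16.3 and 14.8 FPKM in ISRIB, all below (log2 fold change −0.21, 95% interval −0.33 to −0.09, limma adjusted p = 0.134). Parp1, which marks strand breaks with ADP-ribose, had 80.8, 81.5 and 84.7 against 71.9, 76.5 and 75.0 FPKM (−0.14, adjusted p = 0.169). On the other side Tipin, a replication fork protein, had a mean of 12.7 FPKM in Control and 14.8 FPKM in ISRIB with no overlap (0.20, adjusted p = 0.172), and Rpa3, a short gene of the single-strand binding complex, differed by 0.20 on the log2 scale (adjusted p = 0.311) with overlap. H2afx and Atrip, also in this list, were not matched by symbol and are not analysed here.

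Regulators of the family were split, 11 of 21 higher and 10 lower, with a median of 0.01. Without overlap were 5 lower (23.8%) and 2 higher (9.52%), against 12.0% and 10.8% of all genes tested. After the length correction these numbered 3 and 2, where 19.6% of all genes tested had no overlap. On TPM 6 regulators were higher and 15 lower, and without ISRIB replicate 1 9 were higher and 12 lower. The median was −0.05 in both cases. Huwe1, a very large ubiquitin ligase with p53 among its substrates, had 53.7, 52.3 and 51.3 FPKM in Control and 46.2, 45.7 and 44.0 FPKM in ISRIB (log2 fold change −0.21, 95% interval −0.30 to −0.11), with a limma adjusted p of 0.0995 and a voom adjusted p of 0.0455. The acetyltransferase gene Ep300 had −0.16 (adjusted p = 0.162), also without overlap. The implied length was 16730 bases for Huwe1, which lies in the longest class, and 8973 bases for Ep300, in the class below it. Ppp1r13l, which codes for the p53 inhibitor iASPP, had 7.21, 6.92 and 6.56 against 8.32, 7.49 and 8.36 FPKM (0.21, adjusted p = 0.207), and the methyltransferase Kmt5a had 0.10 (adjusted p = 0.318), both with all ISRIB values above Control.

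Among cell cycle targets of the checkpoint 9 of 11 were higher, with a median of 0.04, where 6696 of the 12922 genes tested were higher. The direction turned without Control replicate 1, with 5 higher and 6 lower, and on TPM, with 4 higher and 7 lower and a median of −0.01. Cdk2, the kinase that p21 inhibits, had 18.9, 19.6 and 19.4 FPKM in Control and 21.8, 21.3 and 22.6 FPKM in ISRIB (log2 fold change 0.17, limma adjusted p = 0.136), with no overlap, and Wee1, a brake on CDK1, had −0.10 (adjusted p = 0.522). The relatives of Cdkn1a and Ccng1 had 5 of 8 genes higher and a median of 0.07 (0.01 after the length correction). Ccng2, the paralog of Ccng1, had 20.5, 18.4 and 21.8 FPKM in Control and 25.7, 22.0 and 25.7 FPKM in ISRIB, above Control by a narrow gap (0.27, 95% interval 0.08 to 0.46, adjusted p = 0.186). The INK4 inhibitor Cdkn2d had 4.92, 6.18 and 5.87 against 6.65, 7.44 and 7.21 FPKM (0.31, adjusted p = 0.174), and Cdkn1b, which codes for p27, had −0.08 (adjusted p = 0.597).

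**Figure D5:**
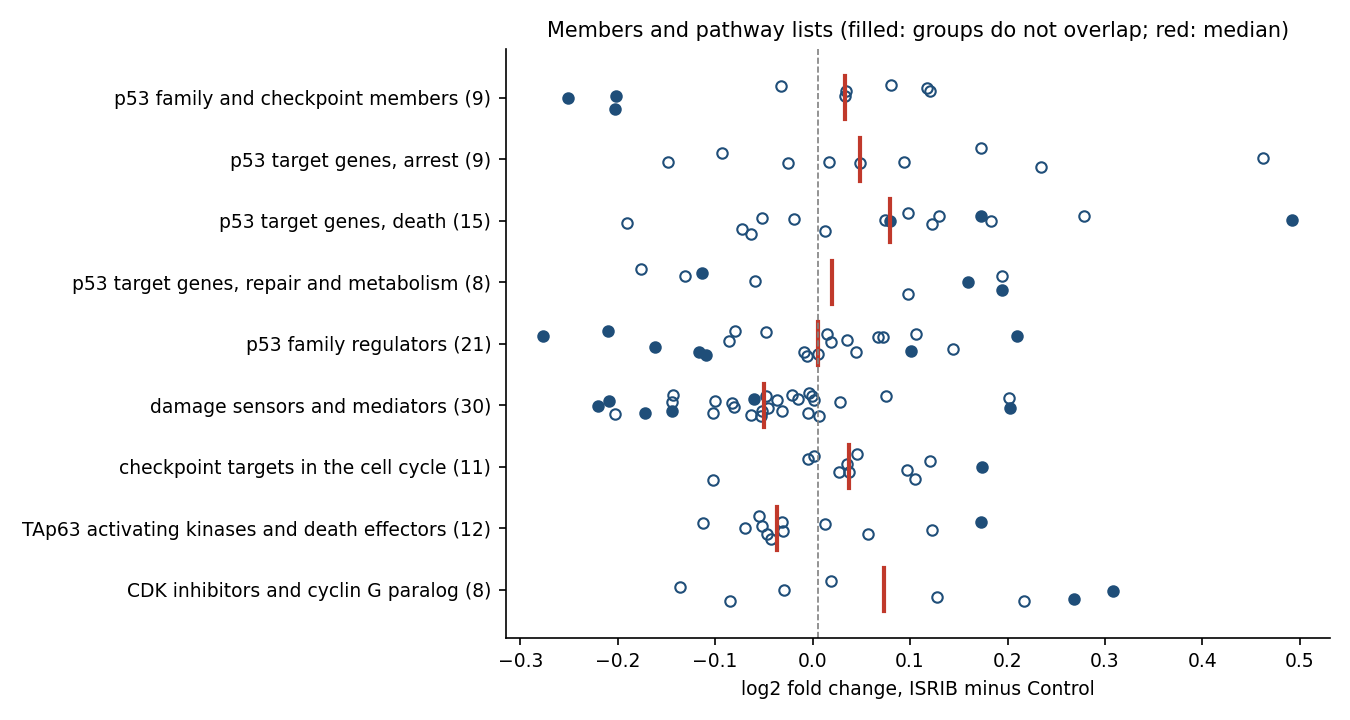
log2 fold change (ISRIB minus Control) of the 9 members tested and of the tested genes of 8 pathway lists (number of genes in brackets); each point is a gene, filled where the 3 ISRIB and 3 Control values do not overlap, the red bar is the median of the list and the dashed line the median of all genes tested, 0.01. Sensors and mediators lie mostly left of 0, with 24 of 30 lower, and death targets mostly right, with 10 of 15 higher.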

How the data were processed

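RNA sequencing of cultured mouse ovary was deposited as 1 table of FPKM values for 26329 genes in 3 Control and 3 ISRIB libraries. The authors' FPKM came, per the submitters' processing notes, from a workflow that names fastp, HISAT2, HTSeq, R 3.2.0 and DESeq2 with build mm10; the strand setting is not given in the sources used here. Whole reads were recovered from the steps between FPKM values (tolerance 0.01 read), 100% of genes coming out whole, which also gave an implied length for each gene.

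Genes with a mean of at least 1 FPKM (12922) were tested on log2(FPKM + 0.5) with limma 3.58.1 in R 4.3.3, with trended variance and Benjamini-Hochberg adjustment over all of them. The fold change on this scale understates that of low genes. Trp73 had an exact permutation test. Results were recomputed with other pseudocounts, filters and scalings, a length correction, voom on the recovered reads, a replicate block and each library left out. The fits were tested on simulated data. Besides the members, the text names from each list the 2 tested genes with the smallest p in each direction (some omitted). It also names Pmaip1, the other tested genes of the arrest list, Egr1, Junb, marker genes, and the 3 closest profiles to Trp63 and Cdkn1a. The members and lists were chosen with earlier results of these data known.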

Additional observations from a re-analysis of the deposited data

How the results depend on the processing

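No member was called under any of the alternatives run. Over all genes, 0 were called in the main test, 8 with a mean of at least 5 FPKM, 120 in voom on the recovered reads and 11 with a replicate block. Deviations of same-numbered libraries had correlations of −0.19, −0.09 and 0.19, against −0.34 to 0.35 for other numbers. With 3 libraries per group and no origin in the labels, this cannot show whether the replicate numbers pair the libraries. Members with no overlap between groups numbered 3, and from 3 to 5 when single libraries were left out, with 5 without ISRIB replicate 2. The share of all genes without overlap also went up there, from 22.8% to 32.3%. Steps in the order of levels with ranges apart numbered 3, and from 3 to 5 likewise, with 5 without ISRIB replicate 3. Log2 fold changes near 0 turned sign. On TPM, Trp53 stood at −0.0182 and Cdkn1a at −0.0187. After the length correction Mdm2 stood at 0.0145 and Cdkn1a at −0.00814. With single libraries left out, Chek1 ranged from −0.00153 (without Control replicate 1) to 0.178, Mdm2 from −0.0621 to 0.000377 (without ISRIB replicate 3) and Cdkn1a from −0.245 (without ISRIB replicate 1) to 0.191, with −0.0542 without Control replicate 3. Atm and Atr ranged from −0.26 to −0.13 and Trp63 from −0.32 to −0.11. On TPM 604 genes were higher and 1927 lower at an unadjusted p under 0.05, against 1126 and 999 in the main test. The causes were not tested.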
